A study of Mus musculus with 4 samples.

Results

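Receptor-mediated endocytosis of filtered protein was examined in kidney RNA through 7 genes, Lrp2, Cubn, Amn, Lrpap1, Dab2, Clcn5 and Ocrl, taken by symbol from a table of 29190 genes. None of the symbols was duplicated, and all 7 genes had enough counts to be tested. The series compared kidneys of male C57 mice, 8 weeks old, injected with cisplatin at 30 mg/kg, with kidneys of mice of the same age and sex injected with physiological saline, in 2 libraries per group. Cisplatin, a platinum compound used against tumours, binds DNA and is toxic to the renal tubule. The labels' protocols name 18 mice in 3 groups and exposures of 24 h or 48 h. They do not tell which exposure the cisplatin libraries had. No animal carried a transgene or a deletion according to the labels, and whether a library holds tissue of 1 mouse or of several is not given.

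The proximal tubule, the nephron segment next to the glomerulus, takes back the small proteins that pass the filter. Megalin (Lrp2), a very large receptor of the LDL receptor family, and cubilin (Cubn), a receptor without a membrane anchor of its own, bind albumin, vitamin carriers, hormones and other ligands at the brush border. Cubilin is held in the membrane by amnionless (Amn). Megalin is escorted through the endoplasmic reticulum by the receptor-associated protein RAP (Lrpap1), and its tail is linked to clathrin by the adaptor Dab2. Endosomes are then acidified with the help of the chloride-proton exchanger ClC-5 (Clcn5), and the phosphoinositide phosphatase Ocrl acts in the return of receptors to the surface. In humans, loss of CLCN5 causes Dent disease and loss of OCRL causes Lowe syndrome, both with low molecular weight proteinuria.

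The table summed to 20662475 and 23150274 counts for the 2 cisplatin libraries, against 21483564 and 27122403 for the saline ones. The labelled tissue carried its defining transcripts. The summed level of 25 proximal tubule markers was 21309 to 21954 CPM in the cisplatin libraries and 59225 to 61014 CPM in the saline libraries, where CPM is the count relative to a library size scaled by the trimmed mean of M values (TMM). Kap alone gave 14781 and 14242 CPM of this sum after cisplatin and 25836 and 23592 CPM after saline. Its log2 fold change of -0.77 was the smallest fall among the 25 markers, whose median was -2.43, so the sum mainly follows Kap. In the same libraries markers of several other cell types were mostly higher after cisplatin. Called higher were 10 of 11 macrophage, 7 of 7 neutrophil and 8 of 10 endothelial markers, beside 37.2% of all tested genes. So were 8 of 9 fibroblast and mural and 6 of 6 podocyte markers. Their summed levels ran from 298 to 316 CPM for macrophages after cisplatin against 104 to 112 CPM after saline. Neutrophil markers summed to 37.1 to 40.2 CPM after cisplatin and 4.10 to 6.22 CPM after saline, and endothelial markers to 1012 to 1036 CPM after cisplatin and 729 to 733 CPM after saline. Fibroblast and mural markers summed to 1501 to 1503 CPM after cisplatin and 464 to 479 CPM after saline, and podocyte markers to 568 to 599 CPM after cisplatin and 370 to 377 CPM after saline. No marker of these lists was at 0 in any library, but some neutrophil markers were barely detected after saline. Retnlg stood there at 0.0541 and 0.0820 CPM and Mmp9 at 0.108 and 0.0820 CPM. S100a8 was at 0.108 CPM in saline replicate 1. These values lie under the level of 3 counts, which is 0.14 CPM in saline replicate 1 and 0.111 CPM in saline replicate 2. Of 9 intercalated cell markers, by contrast, 7 were called lower and 1 higher. In bulk tissue, fewer proximal tubule cells and less RNA per cell cannot be told apart, and the part of cell composition in the results was not tested.

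The promoters of the receptor genes are shown because Lrp2 and Cubn fell by nearly the same factor while Amn, whose product carries cubilin, fell far less. Sequences are from RefSeq on GRCm38.p6 and span 250 bases before to 50 bases after each start as RefSeq places it. Gene positions given below are from GENCODE, which places the start of Cubn at 13491813 on the minus strand. The Cubn window therefore lies wholly upstream of that start. All 7 members matched the table, with 9 windows in all. Each sequence is written 5′ to 3′ on the strand of the gene, and capitals mark CpG, a C followed by a G, the dinucleotide at which vertebrate DNA is methylated. The windows are chr2:69585980-69586279 on the minus strand (Lrp2), chr2:13491827-13492126 on the minus strand (Cubn) and chr12:111270846-111271145 on the plus strand (Amn).
Lrp2: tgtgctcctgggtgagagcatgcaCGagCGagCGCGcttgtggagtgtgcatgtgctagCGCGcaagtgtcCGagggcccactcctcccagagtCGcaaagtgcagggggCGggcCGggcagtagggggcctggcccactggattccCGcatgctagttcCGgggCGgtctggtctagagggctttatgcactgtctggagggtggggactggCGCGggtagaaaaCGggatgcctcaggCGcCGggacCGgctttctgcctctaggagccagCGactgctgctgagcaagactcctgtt
Cubn: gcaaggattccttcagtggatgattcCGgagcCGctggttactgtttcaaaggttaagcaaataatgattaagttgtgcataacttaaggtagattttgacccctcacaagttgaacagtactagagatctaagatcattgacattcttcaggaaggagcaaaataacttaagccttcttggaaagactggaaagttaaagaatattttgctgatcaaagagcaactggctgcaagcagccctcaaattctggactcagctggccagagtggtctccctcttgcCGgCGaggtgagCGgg
Amn: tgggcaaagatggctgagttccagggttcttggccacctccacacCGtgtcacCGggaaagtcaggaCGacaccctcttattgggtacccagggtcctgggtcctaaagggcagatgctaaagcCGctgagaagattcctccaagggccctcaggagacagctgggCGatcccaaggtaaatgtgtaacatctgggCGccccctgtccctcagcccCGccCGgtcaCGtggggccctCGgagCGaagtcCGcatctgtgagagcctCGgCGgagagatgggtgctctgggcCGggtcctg

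The Lrp2 window was 65% G or C with 20 CpG dinucleotides and the Amn window 62.3% with 15, whereas the Cubn window was 44.3% with 5. The medians over the 32851 promoter windows of the RefSeq table were 52.7% and 7 CpG. Over the 9 windows of the 7 members the G or C share ran from 37.7 to 65%. The Lrp2 window lay above the median and the Cubn window below it. The part of promoter composition in the falls was not tested.

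After cisplatin, transcripts of both receptors fell to 12.6 and 13.5% of the saline level, those of the adaptor Dab2, the chaperone gene Lrpap1 and the exchanger gene Clcn5 fell by smaller factors, Amn fell by the least, and Ocrl did not pass the test. Of the 7 members 6 were called lower and 0 higher in the edgeR quasi-likelihood test, with calls made under a Benjamini-Hochberg adjusted p of 0.05 over all 17419 tested genes. Of all tested genes 73.6% were called, 36.4% lower and 37.2% higher. Levels of the groups were separate, with no overlap, in 6 of the 7 members, against 86.3% of the tested genes, so a call or a lack of overlap is common in these data and the sizes carry more than the counts. The median log2 fold change was -1.46 over the members and 0.04 over all tested genes.

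**Figure D1:**
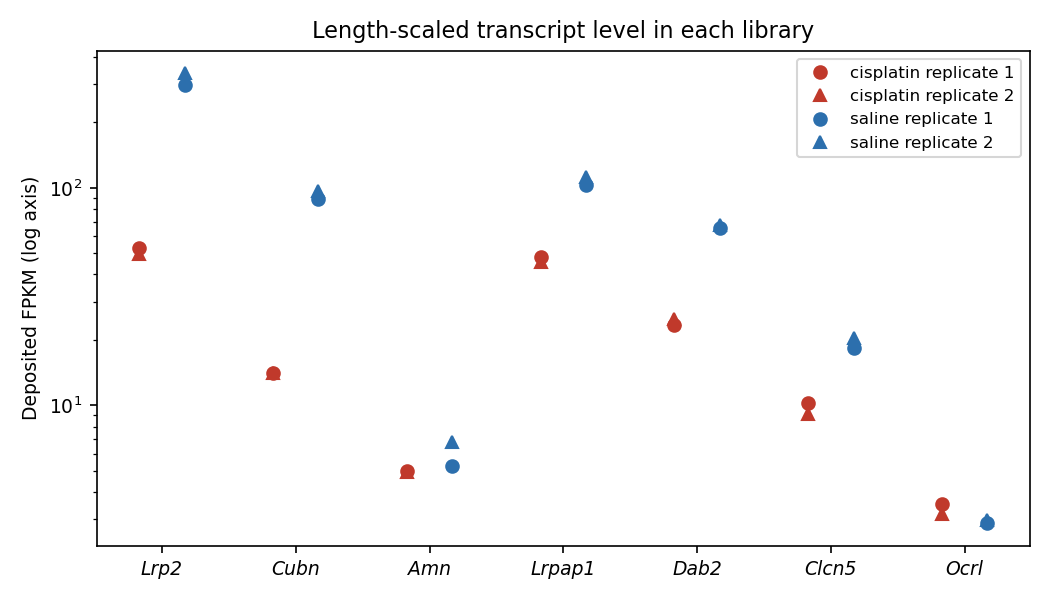
Length-scaled transcript level (authors' deposited FPKM, log axis) of the 7 genes in each library, with circles for replicate 1 and triangles for replicate 2. Lrp2 stands at 53.03 and 49.62 FPKM after cisplatin and at 297.41 and 335.98 FPKM after saline. Ocrl is the gene with higher FPKM in both cisplatin libraries.

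Lrp2 (ENSMUSG00000027070.12, GRCm38 chromosome 2, 69424340 to 69586065, minus strand) had 29782 and 31027 counts after cisplatin, against 166266 and 225293 after saline. Every cisplatin library lay far under every saline library. Scaled levels were 1226 ± 42.1 CPM after cisplatin and 9114 ± 166 CPM after saline (mean ± SD, n = 2 each), and the log2 fold change was -2.89 with SE 0.05 (adjusted p = 1.18e-19 by edgeR quasi-likelihood and Benjamini-Hochberg). The level after cisplatin was 13.5% of the saline level. Lrp2 alone took 0.144% (95% Wilson interval 0.143 to 0.146%) and 0.134% (0.133 to 0.136%) of the cisplatin counts, against 0.774% (0.770 to 0.778%) and 0.831% (0.827 to 0.834%) of the saline counts. Among protein-coding genes ranked by deposited FPKM, Lrp2 was number 589 and 610 after cisplatin and number 80 and 77 after saline.

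Cubn (ENSMUSG00000026726.10, chromosome 2, 13276338 to 13491813, minus strand) followed Lrp2 closely. It had 5377 and 6012 counts after cisplatin and 33751 and 44190 counts after saline, or 229 ± 3.58 CPM and 1819 ± 11 CPM (SD, n = 2 each). The groups were far apart and the replicates of each group lay close together. The log2 fold change was -2.99 (SE 0.06, edgeR quasi-likelihood, adjusted p = 4.44e-19), and the level after cisplatin was 12.6% of that after saline. A noncoding gene on the opposite strand, Gm13270, shares 368 of the 14935 exonic bases of Cubn, but had 101 counts over the 4 libraries together.

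Amn (ENSMUSG00000021278.6, chromosome 12, 111271095 to 111276426, plus strand), which encodes the membrane anchor of cubilin, had 285 and 315 counts after cisplatin and 300 and 462 counts after saline. Scaled to 12.1 ± 0.0900 CPM after cisplatin and 17.6 ± 1.91 CPM after saline (SD, n = 2 each), its log2 fold change was -0.55 (SE 0.11, edgeR quasi-likelihood, adjusted p = 0.000211). The groups did not overlap, although the saline libraries, at 16.2 and 18.9 CPM, differed more from each other than the cisplatin libraries, at 12.0 and 12.1 CPM. This call depended on the scaling. Under library size alone the log2 fold change was -0.18 (adjusted p = 0.167), and with limma-trend on FPKM it was -0.26 at a pseudocount of 0.1 and -0.23 at a pseudocount of 1 (adjusted p = 0.248 for both).

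Lrpap1 (ENSMUSG00000029103.14, chromosome 5, 35091501 to 35105766, minus strand), the gene of the chaperone RAP, had 4884 and 5114 counts after cisplatin and 10329 and 13502 counts after saline. Its level was 202 ± 6.20 CPM after cisplatin and 556 ± 4.01 CPM after saline (SD, n = 2 each), giving a log2 change of -1.46 (SE 0.06; adjusted p = 1.37e-14 by edgeR quasi-likelihood). Dab2 (ENSMUSG00000022150.14, chromosome 15, 6299788 to 6440712, plus strand), the clathrin adaptor of megalin, had 3537 and 4209 counts after cisplatin and 9815 and 12128 counts after saline. It stood at 156 ± 9.29 CPM after cisplatin and 514 ± 24.2 CPM after saline (SD, n = 2 each), giving a log2 change of -1.72 (SE 0.06; adjusted p = 4.49e-15 by edgeR quasi-likelihood). For both genes the groups did not overlap. Dab2 is also known from macrophages, endothelium and fibroblasts, whose markers were higher in the cisplatin libraries as given above, and their part in its value was not tested.

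Clcn5 (ENSMUSG00000004317.12, chromosome X, 7153810 to 7319358, minus strand) had 2934 and 2903 counts after cisplatin and 5220 and 6914 counts after saline. The level was 118 ± 8.34 CPM after cisplatin and 283 ± 0.595 CPM after saline (SD, n = 2 each), without overlap, and the log2 fold change was -1.26 (SE 0.06, edgeR quasi-likelihood, adjusted p = 4.85e-13). Clcn5 is also used by intercalated cells, which handle acid and base in the collecting duct. Of 9 intercalated cell markers 7 were called lower and 1 higher, with summed levels of 121 to 126 CPM after cisplatin and 335 to 341 CPM after saline, and their part in the value of Clcn5 was not tested.

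Ocrl (ENSMUSG00000001173.13, chromosome X, 47912387 to 47965868, plus strand) was the member that did not pass. It had 753 and 757 counts after cisplatin and 610 and 756 counts after saline, which scaled to 31.8 and 29.2 CPM after cisplatin and 33.0 and 31.0 CPM after saline, so the groups overlapped. The log2 fold change was -0.07 (SE 0.08, edgeR quasi-likelihood, adjusted p = 0.472). Its sign was set by the scaling, and with library size alone Ocrl was called higher, at 0.30 (SE 0.09, edgeR quasi-likelihood, adjusted p = 0.00481). That setting moved the median of all tested genes by as much, to 0.41 against 0.04 with TMM, and upper-quartile scaling moved it to 0.16.

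**Figure D2:**
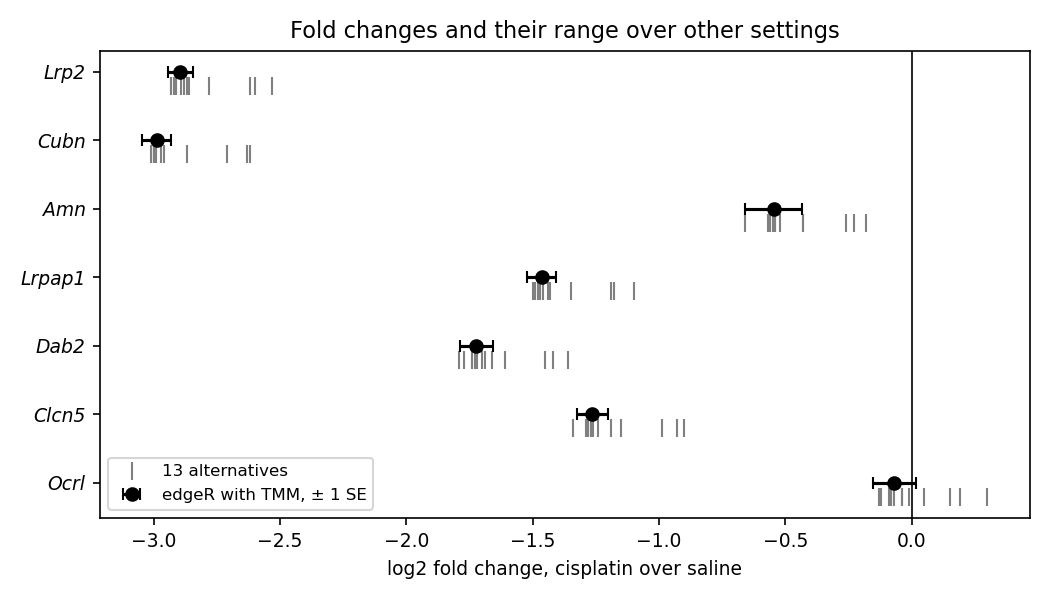
Log2 fold change of each gene, cisplatin over saline, with 1 standard error on either side (black), and the values under 13 other settings (grey ticks). Lrp2 and Cubn stay between -3.01 and -2.53, the ticks of Amn reach -0.18, and those of Ocrl lie on both sides of 0.

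Ordered by the size of the fall, the members were Cubn, Lrp2, Dab2, Lrpap1, Clcn5, Amn and Ocrl. To see which neighbours in this order differ without any library scaling, counts were divided by those of another member in the same library. The log2 ratio of Cubn to Lrp2 was -2.47 and -2.37 after cisplatin and -2.30 and -2.35 after saline. The mean difference of -0.09 was no larger than the gap between the cisplatin replicates, so these receptors were not distinguishable in the size of their fall. The ratio of Lrpap1 to Dab2 was 0.466 and 0.281 on the log2 scale after cisplatin and 0.074 and 0.155 after saline. The difference of 0.26 exceeded the gap between the replicates of either group, though not by a wide margin.

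All other members gained on Lrp2. The log2 ratio to Lrp2 was higher after cisplatin by 1.17 for Dab2, 1.43 for Lrpap1, 1.63 for Clcn5, 2.36 for Amn and 2.82 for Ocrl, and in each the replicates of a group lay within 0.2 of each other. Relative to Cubn, its receptor partner, Amn gained 2.45, with log2 ratios of -4.24 and -4.25 after cisplatin and -6.81 and -6.58 after saline. For each of the 9 ratios examined the exact two-sided permutation test over libraries gave p = 0.333, the smallest value that 2 libraries against 2 allow, also after adjustment over the 9 ratios. The test therefore cannot pass a threshold of 0.05 here.

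**Figure D3:**
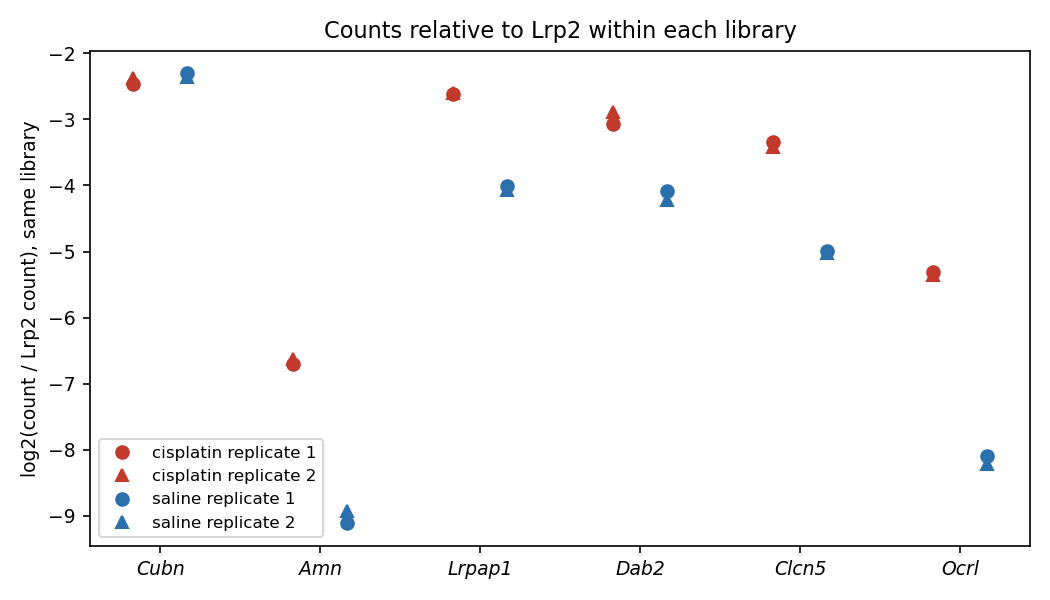
Log2 ratio of each gene's count to the Lrp2 count of the same library, by library. Cubn keeps its ratio to Lrp2 within the replicate gap, whereas Amn stands at -6.71 and -6.62 after cisplatin and at -9.11 and -8.93 after saline, and Ocrl at -5.31 and -5.36 after cisplatin and at -8.09 and -8.22 after saline.

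Per length, the make-up of the set was accordingly different in the kidneys after cisplatin. On the deposited FPKM scale the ratio of Lrpap1 to Lrp2 was 0.911 and 0.916 after cisplatin and 0.345 and 0.333 after saline. The FPKM ratio of Dab2 to Lrp2 was 0.442 and 0.505 after cisplatin and 0.220 and 0.200 after saline, and that of Amn to Cubn was 0.354 and 0.350 after cisplatin and 0.0594 and 0.0699 after saline. The summed counts of the 7 genes made up 0.230% and 0.217% of the cisplatin libraries and 1.05% and 1.12% of the saline libraries. Lrp2 held 62.6% and 61.6% of that sum after cisplatin and 73.5% and 74.3% after saline.

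Among protein-coding genes, those with long transcripts fell more often, which touches Lrp2, with 16701 exonic bases, and Cubn, with 14935. Of 1369 tested protein-coding genes with at least 10 kb of exon, 52.1% were called lower and 28% higher, with a median log2 fold change of -0.24. Of 13042 shorter ones 38.5% were lower and 38.6% higher, with a median of 0.02. Clcn5 has 11452 exonic bases, Ocrl 9486, Dab2 7342, Lrpap1 4116 and Amn 1843. The part of transcript length in the fall of the receptors was not tested.

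Abundant genes fell as well. Of the 86 protein-coding genes with a saline mean of at least 1000 CPM, 84 were called lower, with a median of -1.55. A choice by the saline level favours falls. Within this group 8 genes fell by more than Cubn and 11 by more than Lrp2. Of the 25 proximal tubule markers, all of which were called lower with a median of -2.43, 8 fell by more than either receptor, 21 by more than Dab2, Lrpap1 or Clcn5, and 25 by more than Amn. The markers with the smallest p were Slc5a12 (lactate transport, log2 fold change -4.71, SE 0.07), Slc7a7 (basic amino acid transport, -4.48, SE 0.07), Slc6a19 (neutral amino acid transport, -4.11, SE 0.07) and Pck1 (gluconeogenesis, -3.48, SE 0.06).

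Genes whose centred log2 levels over the 4 libraries lay nearest to those of Lrp2, among 7422 genes averaging 20 CPM or more, were Gcnt1, Cyp51, Fbp1, Pdzk1 and Sult1c2, at Euclidean distances of 0.023 to 0.051. Gcnt1 encodes a glycosyltransferase of O-glycans, and Pdzk1 a scaffold of brush border transporters. Gcnt1 stood at 226 CPM after cisplatin and 1706 CPM after saline. Nearest to Cubn were Dnajc12, Slc17a3, Slc16a14, Slc13a1 and Pter (distances 0.073 to 0.083), which include the sulphate transporter gene Slc13a1, and nearest to Dab2 were Tnfrsf21, Acbd4, Nudt12, D630045J12Rik and Echdc1 (0.031 to 0.058). With 4 libraries in 2 groups, such distances describe little beyond the size of the group difference.

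The clathrin machinery with which megalin is internalised changed in both directions. Of 20 genes of adaptors and coat, 11 were called lower, 7 higher and 2 did not pass, the median log2 change being -0.20. For this and the lists below, the shares over all tested genes were 36.4% lower and 37.2% higher. With library size alone 6 of the 20 were lower and 10 higher. With limma-trend on FPKM at either pseudocount 4 were lower and 7 higher, so the balance depended on the scaling and the test. Myo6, the motor that moves endocytic vesicles away from the brush border, stood at 245 ± 10.7 CPM after cisplatin and 659 ± 10.5 CPM after saline (SD, n = 2 each), a log2 fold change of -1.43 (SE 0.06). Ap2a2, a subunit of the clathrin adaptor AP-2, changed by -0.997 (SE 0.06), and the clathrin-coat nucleators Fcho2 and Eps15 by -0.84 (SE 0.06) and -0.68 (SE 0.06).

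Of 21 genes of endosome sorting and recycling, 15 were called lower, 2 higher and 4 did not pass, with a median of -0.40. With library size alone 9 were lower and 6 higher. Rab11fip3, an effector of the recycling GTPase Rab11, fell to 46.2 ± 1.76 CPM after cisplatin, against 463 ± 14.8 CPM after saline (SD, n = 2 each), a log2 fold change of -3.32 (SE 0.07). The 2 higher genes, named after their values were seen, encode Rab11 itself, Rab11a at 0.20 (SE 0.05) and Rab11b at 0.56 (SE 0.08). Inpp5b, the paralogue of Ocrl with overlapping function in mice, stood at 38.0 ± 0.299 CPM after cisplatin and 102 ± 1.09 CPM after saline, a log2 fold change of -1.42 (SE 0.06), whereas Ocrl did not pass. The early endosome tether Eea1 changed by -1.07 (SE 0.06) and the phosphoinositide kinase gene Pikfyve by -0.97 (SE 0.06).

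Of 21 genes of endosome acidification, 14 were called lower, 2 higher and 5 did not pass, with a median of -0.60, and with library size alone 10 were lower and 7 higher. Clcn5 has close relatives in this list. Clcn3 stood at 100.6 ± 4.37 CPM after cisplatin and 255 ± 11.8 CPM after saline (SD, n = 2 each), a log2 fold change of -1.34 (SE 0.06), and Clcn4, listed as Clcn4-2, changed by -0.96 (SE 0.06). Both values lay near the -1.26 of Clcn5. Atp6v1a, the catalytic subunit of the proton pump, changed by -1.26 (SE 0.06) and the sodium-proton exchanger gene Slc9a3 by -1.43 (SE 0.08).

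Among genes that handle the cargo after uptake, 9 of 14 were called lower, 4 higher and 1 did not pass, with a median of -0.77. Folr1, the folate receptor of the brush border, stood at 57.5 ± 3.50 CPM after cisplatin and 419 ± 11.1 CPM after saline (SD, n = 2 each), a log2 fold change of -2.86 (SE 0.07), close to that of Lrp2. Lgmn, a lysosomal protease gene, changed by -1.93 (SE 0.06), the vitamin D receptor gene Vdr by -1.52 (SE 0.05) and Fcgrt, whose product returns albumin to the circulation, by -1.50 (SE 0.06). Among the higher genes, Ctsd, a lysosomal protease gene named after its value was seen, stood at 1.07 (SE 0.05).

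Of 10 transcription factors tied to Lrp2, Cubn or the lysosome, 5 were called lower, 3 higher and 2 did not pass, with a median of -0.41. Hnf4a, a factor of proximal tubule identity, fell to 119 ± 1.14 CPM after cisplatin, against 709 ± 22.8 CPM after saline (SD, n = 2 each), a log2 fold change of -2.57 (SE 0.06). Ppara, a nuclear receptor of lipid metabolism, changed by -2.08 (SE 0.07). Tfe3, a factor of lysosomal genes, rose by 1.55 on the log2 scale (SE 0.11), and its relative Tfeb, named after its value was seen, was at -0.08 (SE 0.14, edgeR quasi-likelihood, adjusted p = 0.587).

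The other receptors of the LDL receptor family changed in both directions. Of 13 tested, 7 were called lower, 4 higher and 2 did not pass, with a median of -0.48. Over all tested genes 36.4% were called lower and 37.2% higher. With library size alone 6 of the 13 were lower and 6 higher. With limma-trend on FPKM at either pseudocount 3 were lower and 4 higher. Lrp1, the large scavenger receptor of fibroblasts, macrophages and other cells, rose to 382 ± 4.83 CPM after cisplatin, against 114 ± 0.252 CPM after saline (SD, n = 2 each), a log2 fold change of 1.74 (SE 0.06). Fibroblast and macrophage markers were higher in the same libraries, as given above, and their part was not tested. Vldlr changed by -1.67 (SE 0.06), Lrp4 by -1.34 (SE 0.08) and Lrp6, a receptor of Wnt signals, by -1.01 (SE 0.06). Lrp1b, named after its value was seen, was called lower with the lowest fitted log2 fold change of the list, -3.98 (SE 0.79), below that of Lrp2. It was barely detected, at 0 and 0.0771 CPM after cisplatin and 0.541 and 0.860 CPM after saline, and both cisplatin values lie under the level of 3 counts, so the fitted size is not a reliable measure.

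**Figure D4:**
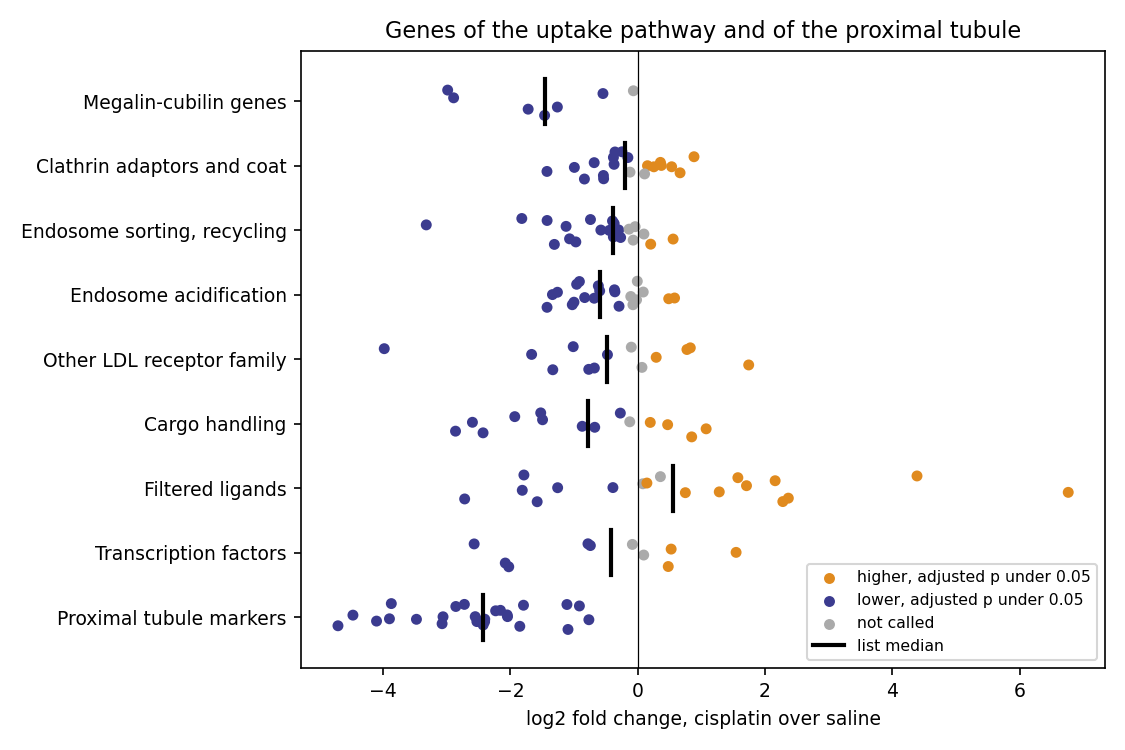
Log2 fold change, cisplatin over saline, of each gene in the lists of the uptake pathway and of the proximal tubule, coloured by call at an adjusted p under 0.05, with list medians as black bars. The members have a median of -1.46, the pathway lists lie between -0.77 and 0.55, and the proximal tubule markers are at -2.43.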

How the data were processed

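Members, lists and tests were chosen with earlier results of these data known. Libraries were stranded, prepared after removal of rRNA and read as pairs of 150 nt, per the labels' protocols. Tests used the raw counts deposited by the authors, and the FPKM values deposited by the authors gave levels per length and an alternative test. The submitters' processing notes list bcl2fastq, TopHat2, edgeR and the build GRCm38, with no version of any tool. How reads were counted, whether by strand, and against which annotation was not stated there.

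Counts were filtered with filterByExpr, scaled by TMM (factors 1.15 and 1.12 for cisplatin, 0.86 and 0.9 for saline) and tested with edgeR 4.0.16 in R 4.3.3 by the quasi-likelihood F test over all 4 libraries. Benjamini-Hochberg adjustment ran over 17419 genes, with calls under 0.05. The SE is the log2 fold change divided by the root of F. A floor of 3 counts corresponds to 0.111 to 0.145 CPM, and intervals and floors cover counting error only, since PCR copies were not marked. Replicates differed by more than sampling noise (chi-square over degrees of freedom 11.5 for cisplatin and 36.6 for saline). The series text calls the replicates biological without naming animals, so p-values cover only the spread between these samples. The procedure was tested on simulated data for this comparison over 17121 genes. It called 42 of 49 genes changed by 1 on the log2 scale and 30 of 50 changed by 0.5. In the simulation few genes changed, equally up and down, with a common dispersion for all genes. In the data 73.6% of tested genes were called, so the simulation cannot tell whether the scaling holds here.

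Each other list names up to 4 called genes with the smallest p. The 5 genes of most similar pattern were taken for Lrp2, Cubn and Dab2 from log2 CPM with a prior count of 2. Positions and exonic lengths are from GENCODE M21 on GRCm38, in which 99.2% of the identifiers were found without their version suffix. Alternatives were relative log expression and upper-quartile scaling, library size alone, no filter, 1 CPM in 2 libraries, a replicate block, DESeq2 1.42.0, limma 3.58.1 on log2 FPKM with a pseudocount of 0.1 or 1, and each library left out. Python 3.11.15 with scipy 1.17.1 and matplotlib 3.10.9 served for permutation tests and plots. Protein sequences were not used here, and some genes that the rule would name are not reported here.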

Additional observations from a re-analysis of the deposited data

How the results depend on the processing

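Over 13 alternatives the log2 fold changes of Lrp2 (-2.93 to -2.53), Cubn (-3.01 to -2.62), Dab2 (-1.79 to -1.36), Lrpap1 (-1.5 to -1.1) and Clcn5 (-1.34 to -0.9) kept their direction and their call. Members called lower numbered 5 where Amn lost its call, which was under the FPKM fits and under library size alone, and 6 in the other 10. Members called higher numbered 1 with library size alone (Ocrl, 0.30), and the value of Ocrl was also above 0 with upper-quartile scaling (0.05) and with FPKM at a pseudocount of 0.1 (0.19) or 1 (0.15). Genes called lower over the whole table numbered 6333, against 4207 with library size alone, 3804 with FPKM plus 0.1 and 3784 with FPKM plus 1. The share of called genes that were higher was 50.6%, against 68.4% with library size alone, 65.6% with FPKM plus 0.1 and 65.9% with FPKM plus 1. In the 7 pathway lists 67 genes were called lower and 32 higher, against 43 lower and 34 higher with FPKM at either pseudocount. With library size alone 49 were lower and 48 higher, so the balance of these lists depended on the scaling. The cause of these shifts was not tested. With each library left out in turn, Amn ran from -0.66 to -0.43, members called lower stayed at 6, and genes called ran from 11490 to 12504. Same-numbered libraries did not deviate together (correlation -0.02), so the numbers were not taken as pairs. With a replicate block 6 members were called lower and 0 higher, and the log2 fold changes were -2.89 for Lrp2, -2.99 for Cubn and -0.54 for Amn. Of 364 counts in the context lists under alternatives, 342 stayed within 1.5 times. Depth limits the precision mainly for Amn, with 285 to 462 counts per library.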

Other observations

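The kidney transcribes several of the proteins that megalin and cubilin are known to bind, and these genes changed in both directions. Of 18 tested ligand genes 10 were called higher, 6 lower and 2 did not pass, the median log2 change being 0.55. Over all tested genes 37.2% were called higher and 36.4% lower. With DESeq2 7 of the 18 were higher and 6 lower. Among the 10, Hpx, Rbp4 and Apoa1, named after their values were seen, were barely detected after saline and stayed low after cisplatin. Hpx stood at 0.271 and 0 CPM after saline and 0.590 and 0.501 CPM after cisplatin. Rbp4 stood at 0.325 and 0.410 CPM after saline and 1.60 and 2.04 CPM after cisplatin. For Apoa1 the levels were 0.379 and 0.328 CPM after saline and 1.39 and 0.733 CPM after cisplatin. Lcn2, the siderophore binder NGAL, stood at 148 ± 7.72 CPM after cisplatin and 1.42 ± 0.740 CPM after saline (SD, n = 2 each), which is 6.76 on the log2 scale (SE 0.13). The metallothionein genes Mt2 and Mt1, which encode metal binders, changed by 4.39 (SE 0.09) and 2.37 (SE 0.07). Ttr, the carrier of thyroid hormone and of retinol-binding protein, fell to 17.8 ± 0.240 CPM after cisplatin, against 117 ± 10.2 CPM after saline, a log2 fold change of -2.72 (SE 0.07). Neutrophils transcribe Lcn2 too, and 7 of 7 neutrophil markers were higher in the same libraries. The part of these cells was not tested.

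Genes of vitamin carriers that megalin and cubilin are known to bind, and of vitamin D metabolism, were examined further, chosen after their values were seen. Tcn2, the cobalamin carrier, stood at 326 ± 12.9 CPM after cisplatin and 1128 ± 19.2 CPM after saline (log2 fold change -1.79, SE 0.06). Cyp27b1, which activates vitamin D, stood at 2.32 ± 0.175 CPM after cisplatin and 14.1 ± 1.17 CPM after saline, and Cyp24a1, which degrades it, at 6.30 ± 1.05 CPM after cisplatin and 33.9 ± 0.587 CPM after saline. Gc, the vitamin D carrier, was at 140 ± 0.402 CPM after cisplatin and 57.3 ± 4.44 CPM after saline, a log2 fold change of 1.28 (SE 0.06).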
